A study of Mus musculus with 4 samples.

Results

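The genes described here are 34 genes of glycolysis and of the hypoxia response, read in neonatal semilunar valve leaflets of mice with and without Cxcr7. They were listed by name, 23 for glucose uptake, glycolysis and the fate of pyruvate, and 11 for the hypoxia-inducible factors (HIF), their hydroxylases and other HIF targets. Each gene was read on the probe set annotated to that gene alone with the highest mean over the 4 arrays. In all, 32 of the 34 had such a probe set, 28 of these passed the filter on dim signals and were tested, and the whole array gave 11260 tested genes. Gpi1 and Eno1 were not matched to a probe set and were not analysed here. Gapdh was present alone only on control probe sets of the array, and Eno2, Slc16a3 and Car9 were below the filter, so these 4 are given as values with no test.

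The mutant animals were Cxcr7-/- neonates and the controls were neonates that the labels describe as wildtype littermates. The labels give no strain, no exact age and no sex. Each array held total RNA from the pooled aortic and pulmonary valve leaflets of 3 neonates, with 4 to 6 leaflets per mutant and 6 per wildtype animal, and there were 2 pools per genotype. Nothing in the labels says that pools came from separate litters, so the p-values measure only the spread between these pools. Cxcr7 (symbol Ackr3), the chemokine receptor missing in the mutants, read 28.3 and 328 in Cxcr7-/- leaflets, against 4936 and 5698 in control leaflets.

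Glycolysis splits glucose into pyruvate in the cytosol and yields ATP without oxygen, and lactate dehydrogenase returns the cofactor it needs by turning pyruvate into lactate. When oxygen is scarce, prolyl hydroxylases stop marking HIF alpha subunits for destruction, and HIF binds a short core motif in DNA and raises transcription of most glycolytic genes. Heart valve leaflets are thin and largely fed by diffusion, and heart muscle, which adjoins them, uses its own isozymes for several of these steps.

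Markers of the cells expected in leaflets were present: all 12 listed interstitial genes, among them Postn and Col1a1, and all 12 endothelial genes passed the filter. Summed markers of several cell types differed between the genotypes. The 12 endothelial genes summed to 12835 and 12193 in Cxcr7-/- leaflets, against 18030 and 20446 in control leaflets, with 10 of 12 negative. Of these 12, 7 were lower in both Cxcr7-/- pools, with log2 fold changes from -1.73 for Cldn5 to 0.16 for Esam. Adipocyte genes, with 2 tested, summed to 4403 and 8116 in Cxcr7-/- leaflets, against 13193 and 14015 in control leaflets. This sum held only Lpl and Fabp4, and Fabp4 alone overlapped between the genotypes. Adipoq, Ucp1 and Cidec were below the filter, so the sum is a weak measure of adipocytes. The interstitial, neutrophil and mast cell, and erythroid sums overlapped between the genotypes. The summed signal of 18 cardiomyocyte genes was 98330 and 147170 in Cxcr7-/- leaflets, against 181467 and 251168 in control leaflets, and 18 of 18 had negative log2 fold changes. The sum of 14 macrophage genes was 23651 and 20776 in Cxcr7-/- leaflets, against 15298 and 12581 in control leaflets, with 14 of 14 positive. The sum of 14 cell cycle genes was 42786 and 43271 in Cxcr7-/- leaflets, against 27864 and 30251 in control leaflets. Smooth muscle genes summed to 17047 and 21423 in Cxcr7-/- leaflets, against 25957 and 34662 in control leaflets, with 7 of 7 tested negative. Neuronal genes summed to 2387 and 1894 in Cxcr7-/- leaflets, against 1239 and 1174 in control leaflets, with 4 of 4 tested positive. A measure of RNA integrity, the Gapdh control signal at the 3' end over that at the 5' end, was 12.6 and 8.2 in Cxcr7-/- leaflets, against 12.7 and 24.2 in control leaflets. The same ratio for beta-actin (Actb) was 15.5 and 11.7 in Cxcr7-/- leaflets, against 20.2 and 19.1 in control leaflets, so the genotypes did not overlap. The part of these differences in the results below was not tested unless a value is given. In pooled tissue, fewer cells of a type and less RNA per cell cannot be told apart.

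After Benjamini-Hochberg adjustment in limma the lowest p of any member was 0.483, above the threshold of 0.05, and the share of all probe sets past that threshold was 0%, with 10.1% at an unadjusted p under 0.05. At an unadjusted p under 0.05 there was 1 member, Hif1a, with higher signal, where 3.94% of all probe sets were higher and 6.18% lower. In 6 of 28 genes (21.4%) both Cxcr7-/- pools lay above both control pools, where 20.1% of all probe sets did. In 5 of 28 (17.9%) both lay below, where 22.3% of all probe sets did. The nearest Cxcr7-/- and control pools almost tied for Pfkfb4, counted below at 189.9 against 190.1. They almost tied too for Pfkp, counted above at 2131 against 2127. Only Aldoc was at least 1.5-fold apart on average, 1 of 28 against 22.6% of all probe sets, and Ldha fell just short at 1.4996-fold. The members were also brighter, with a median control mean of 2293 against 456 over all probe sets, and no share matched for brightness was taken. The median log2 fold change was -0.01 for the 18 glycolysis genes tested and 0.19 for the 10 hypoxia genes tested, beside -0.02 over all probe sets. Under median centring these medians were 0.04 and 0.24, beside 0.03 over all probe sets, and under quantile normalization 0.01 and 0.18, beside 0.02. The hypoxia median was -0.01 without Cxcr7-/- replicate 1 and -0.02 without control replicate 1, so its sign rested on those pools.

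**Figure D1:**
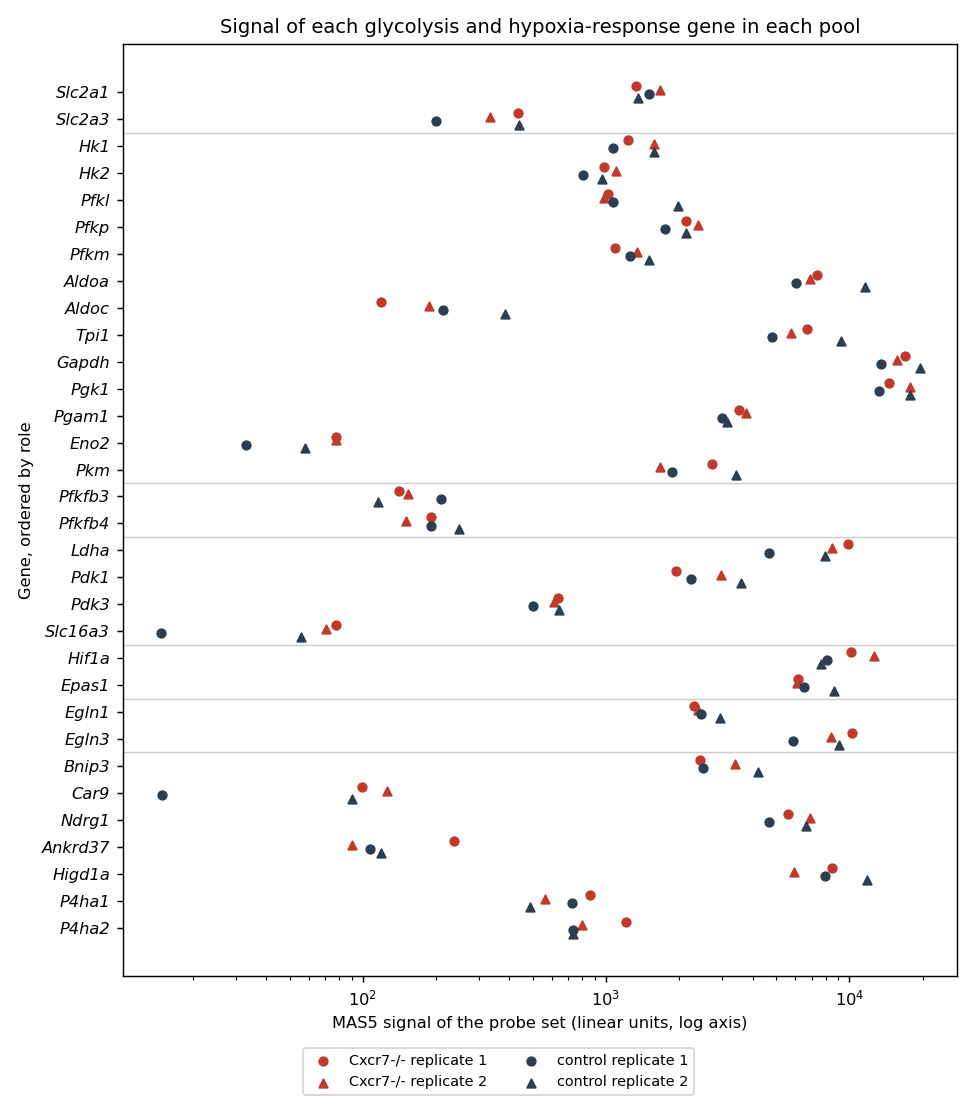
Signal of the 32 glycolysis and hypoxia-response genes with a probe set (rows, ordered by role, with lines between roles) in each of the 4 pools, as MAS5 signal on a log axis. Red marks are Cxcr7-/- pools and dark marks control pools, and in most rows the 2 dark marks lie at least as far apart as the genotypes.

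The spread between the control pools was larger than the genotype difference for most of these genes. Control replicate 2 read higher than control replicate 1 in 24 of 28 genes (85.7%), against 47.3% of all probe sets, and against 55% of the 6749 probe sets with a control mean over 1000. The difference between the control pools had a median of 0.42 on the log2 scale over the 28 genes, beside -0.04 over all probe sets. It exceeded the genotype difference in 23 of 28 genes (82.1%), against 59.2% of all probe sets. Control replicate 1 was the lowest of the 4 pools in 13 genes and control replicate 2 the highest in 15. Over every single-gene probe set of the members that passed the filter, 43 of 54 were higher in control replicate 2. The cardiomyocyte genes shared this order, with 17 of 18 higher in control replicate 2 than in control replicate 1.

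**Figure D2:**
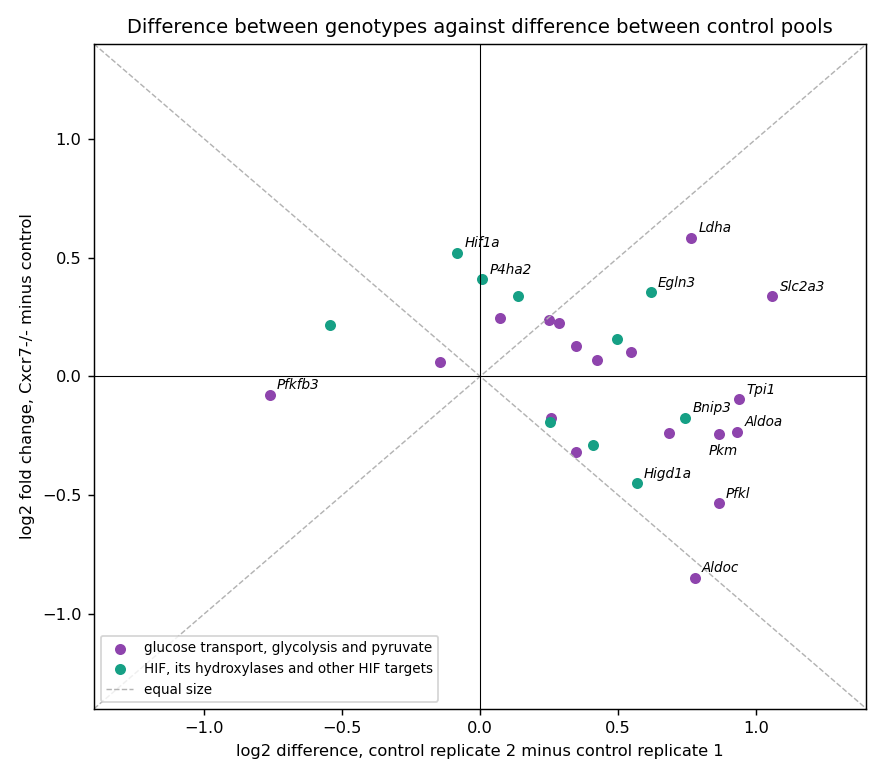
Log2 fold change of Cxcr7-/- over control pools (vertical axis) against the log2 difference of control replicate 2 over control replicate 1 (horizontal axis) for the 28 genes tested. Points left and right of the crossed dashed lines, 23 of 28, differed more between the control pools than between genotypes.

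Glucose enters valve cells through facilitative transporters. Slc2a1, the widely expressed transporter, read 1322 and 1662 in Cxcr7-/- leaflets, against 1496 and 1350 in control leaflets. Slc2a3, a high-affinity transporter of neurons and leukocytes, read 437 and 335 in Cxcr7-/- leaflets, against 200 and 440 in control leaflets. The genotypes overlapped for both, and the log2 fold changes were 0.06 ± 0.26 and 0.34 ± 0.42 (SE of the limma model, n = 2 and 2 pools). The other kept probe set of Slc2a3 was at -0.33 ± 0.37, and the mean over its kept sets at 0.0031. Values after ± below are this SE, and signed values beside them are log2 fold changes of Cxcr7-/- over control.

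Hexokinases trap glucose as its phosphate. Hk2, the isozyme of muscle and growing cells, read 983 and 1104 in Cxcr7-/- leaflets, against 806 and 962 in control leaflets (log2 fold change 0.24 ± 0.27). Hk1, the isozyme of most tissues, read 1226 and 1578 in Cxcr7-/- leaflets, against 1068 and 1569 in control leaflets. The genotypes did not overlap for Hk2, with the lower mutant pool close above the higher control pool, and overlapped for Hk1.

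Phosphofructokinase makes the committed step from 3 genes, and these differed in sign. Pfkl, the liver-type subunit, read 1015 and 983 in Cxcr7-/- leaflets, against 1073 and 1972 in control leaflets (log2 fold change -0.53 ± 0.33). Its other kept probe set was at -0.43 ± 0.34 and overlapped between the genotypes. On the brighter Pfkl set both mutant pools were below both controls, yet the Cxcr7-/- pools and control replicate 1 lay close together. Without control replicate 2 its log2 fold change was -0.10. Pfkp, the platelet-type subunit, read 2131 and 2388 in Cxcr7-/- leaflets, against 1743 and 2127 in control leaflets (0.23 ± 0.25), and Pfkm, the muscle-type subunit, was at -0.18 ± 0.27 with overlapping genotypes. The genotypes of Pfkp were apart by less than the gap between its control pools, and its mean over all kept probe sets was at -0.11. The bifunctional enzymes that set the level of its strongest allosteric activator were dim. Pfkfb4 read 190 and 151 in Cxcr7-/- leaflets, against 190.1 and 248 in control leaflets, and Pfkfb3 read 140 and 154 in Cxcr7-/- leaflets, against 210 and 115 in control leaflets.

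Aldolase cleaves the doubly phosphorylated sugar. Aldoc, the brain-type aldolase, read 119 and 187 in Cxcr7-/- leaflets, against 214 and 383 in control leaflets. Both mutant pools lay below both control pools, and the log2 fold change of -0.85 ± 0.41 (1.80-fold lower, adjusted p = 0.532 in limma) was the largest of the 28 genes. The signal was low, and without control replicate 2 the log2 fold change was -0.46. A dimmer Aldoc probe set, below the filter and not tested, had the opposite sign, with a mean log2 difference of 1.11. It read 50.4 and 25.7 in Cxcr7-/- leaflets, against 8.21 and 2.46 in control leaflets. The ubiquitous and muscle aldolase Aldoa read 7357 and 6886 in Cxcr7-/- leaflets, against 6050 and 11562 in control leaflets, so that the controls bracketed the mutants. All 5 probe sets of Aldoa were higher in control replicate 2 than in control replicate 1, by 0.27 to 0.93 on the log2 scale.

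The later enzymes were bright, and the control pools lay far apart here too. Tpi1, triosephosphate isomerase, read 6727 and 5782 in Cxcr7-/- leaflets, against 4814 and 9247 in control leaflets. Gapdh, which oxidises the triose, read 16914 and 15688 on the 3' control probe set in Cxcr7-/- leaflets, against 13518 and 19432 in control leaflets, a mean log2 difference of 0.01 with no test. A probe set that Gapdh shares with pseudogenes gave -0.01 ± 0.26. Pkm, pyruvate kinase, read 2737 and 1674 in Cxcr7-/- leaflets, against 1872 and 3430 in control leaflets. In each of these 3 genes the highest pool was control replicate 2, and the controls bracketed the mutants for Tpi1 and Gapdh, while for Pkm the lowest pool was a mutant one.

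Pgk1, phosphoglycerate kinase, read 14540 and 17757 in Cxcr7-/- leaflets, against 13222 and 17759 in control leaflets. Its log2 fold change was 0.07 ± 0.23, and -0.01 after quantile normalization. Many glycolytic genes, Gapdh and Pgk1 among them, have processed pseudogenes, and probes of their bright sets may also read such copies. Pgam1, the mutase of most tissues, read 3519 and 3765 in Cxcr7-/- leaflets, against 2993 and 3146 in control leaflets, at 0.24 ± 0.23. The pools of a genotype were close for Pgam1, and the genotypes did not overlap. Eno2, the neuronal enolase, was below the filter at 77.8 and 77.5 in Cxcr7-/- leaflets, against 33.2 and 57.6 in control leaflets.

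**Figure D3:**
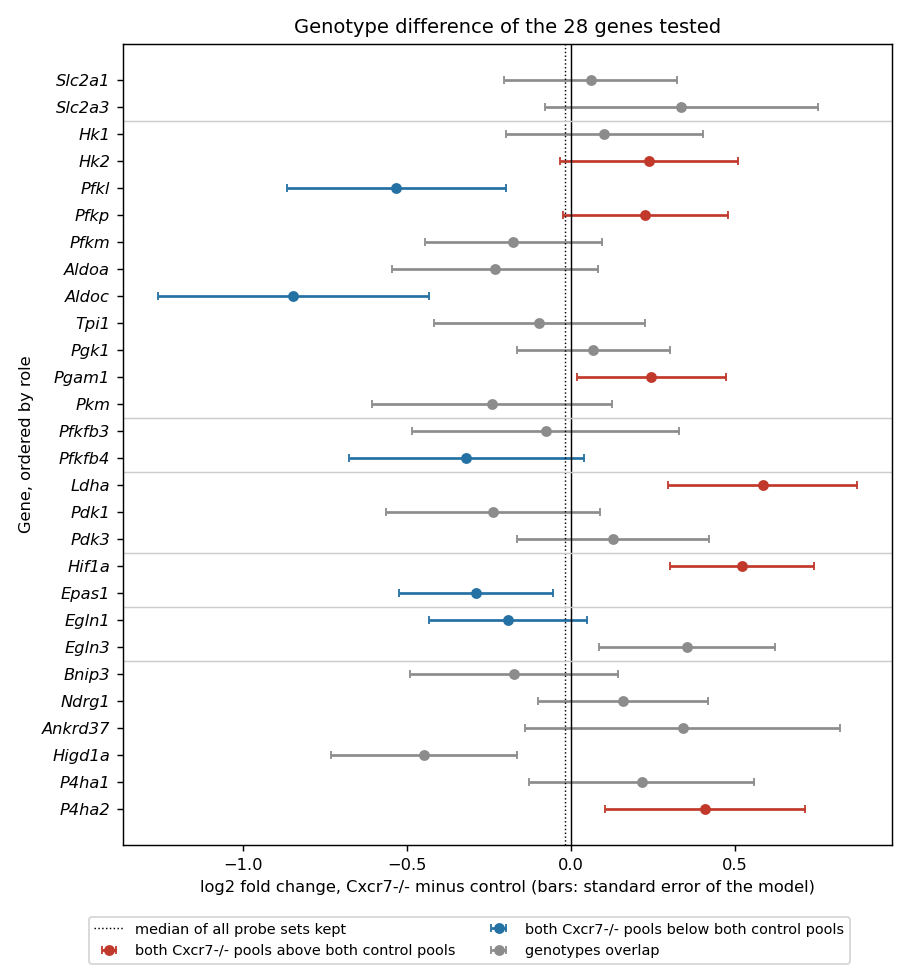
Log2 fold change of Cxcr7-/- over control pools for the 28 genes tested, with the standard error of the model as bars and roles separated by lines. The 6 genes in red had both Cxcr7-/- pools above both control pools, the 5 in blue had both below, and the dotted line is the median of all probe sets kept at -0.02.

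At the fate of pyruvate, Ldha, the lactate dehydrogenase subunit of glycolytic tissue and a classical HIF target, read 9865 and 8508 in Cxcr7-/- leaflets, against 4678 and 7958 in control leaflets. Both mutant pools were above both controls, and the log2 fold change was 0.58 ± 0.29 (adjusted p = 0.539 in limma). It rested on control replicate 1: the value was 0.20 without that pool and 0.97 without control replicate 2. Pdk1, a kinase that shuts pyruvate dehydrogenase and thereby keeps pyruvate out of mitochondria, read 1937 and 2959 in Cxcr7-/- leaflets, against 2226 and 3591 in control leaflets, and Pdk3 was at 0.13 ± 0.29. The genotypes overlapped for both kinases, and all 3 kept Pdk1 probe sets were negative, at -0.24, -0.42 and -0.58. The lactate exporter Slc16a3 was below the filter at 77.5 and 70.4 in Cxcr7-/- leaflets, against 14.8 and 55.9 in control leaflets.

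Other isozymes of the same steps, from a list of 33 further glycolysis and pyruvate genes, are given next. Of 23 tested, 12 log2 fold changes were positive and 11 negative, with a median of 0.07. An unadjusted p under 0.05 was reached by 4 lower genes, beside 6.18% of all probe sets, and by 1 higher gene, beside 3.94%, but by no gene once adjusted. Ldhb, the lactate dehydrogenase subunit of heart, read 2278 and 2974 in Cxcr7-/- leaflets, against 4294 and 7786 in control leaflets (-1.15 ± 0.32, adjusted p = 0.406 in limma). Pgam2, the mutase of muscle, read 515 and 432 in Cxcr7-/- leaflets, against 863 and 2556 in control leaflets (-1.61 ± 0.48). For both genes the mutant pools lay below both controls and control replicate 2 was the highest pool.

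Eno3, the muscle enolase, read 1269 and 1613 in Cxcr7-/- leaflets, against 1835 and 3687 in control leaflets. Pdk4, the kinase of fasting and fat-burning muscle, read 228 and 357 in Cxcr7-/- leaflets, against 595 and 1734 in control leaflets. In Ldhb, Eno3 and Pdk4 the order of the 4 pools was that of the cardiomyocyte sum given above, whose part in these values was not tested. Without control replicate 2 the log2 fold changes were -0.72 for Ldhb, -0.84 for Pgam2, -0.35 for Eno3 and -1.00 for Pdk4. Without control replicate 1 they were -1.57, -2.38, -1.35 and -2.51. A fit without 1 control pool takes its spread from the Cxcr7-/- pools alone, so no p-value is given for these values.

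The gene that was higher was Slc16a7, a carrier for pyruvate and lactate, which read 726 and 619 in Cxcr7-/- leaflets, against 429 and 322 in control leaflets (0.81 ± 0.31). Hk3, the hexokinase of myeloid cells, read 324 and 157 in Cxcr7-/- leaflets, against 145 and 36.8 in control leaflets. It was at an unadjusted p of 0.0519 in limma, and it was named after its values were seen. The macrophage sum had the same order of pools.

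**Figure D4:**
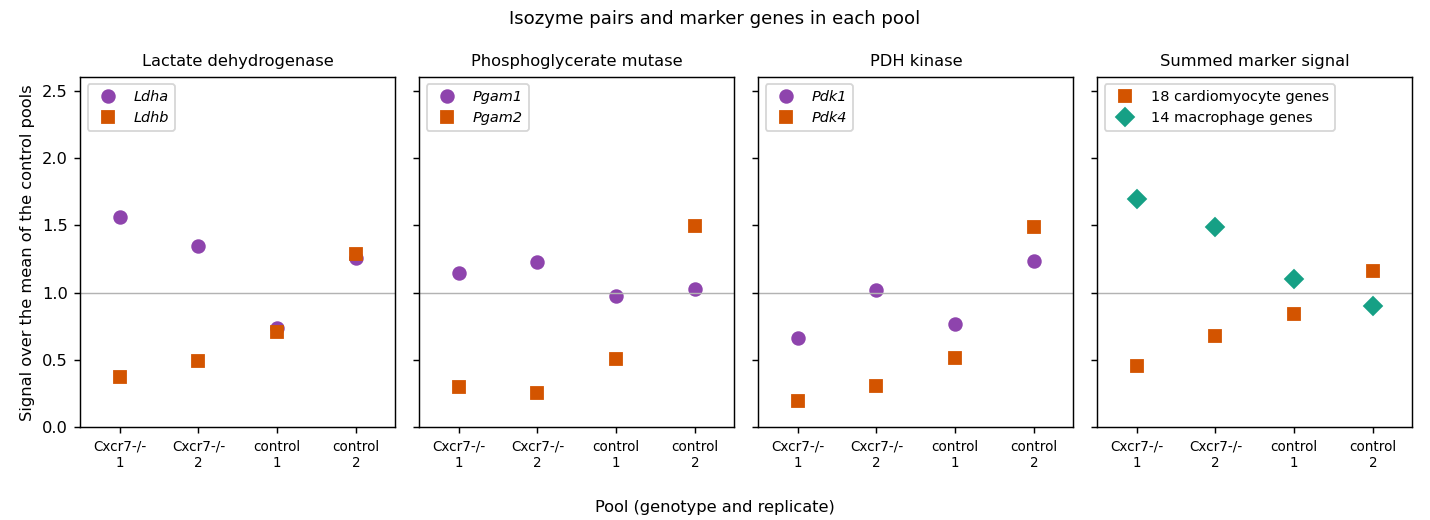
Signal over the mean of the control pools (vertical axis, from 0) in each pool for 3 pairs of isozymes and for the summed signal of cardiomyocyte and macrophage genes. Ldhb, Pgam2 and Pdk4 lie below 1 in both Cxcr7-/- pools, as does the cardiomyocyte sum, while Ldha and Pgam1 lie above 1 there. Pdk1 lies below 1 in Cxcr7-/- replicate 1 and just above 1 in the other Cxcr7-/- pool.

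Promoters of 3 genes are shown, chosen after their values were seen: Ldha and Aldoc had the highest and the lowest log2 fold change of the 28 genes, and Ldhb is the partner of Ldha in the same enzyme. The windows are RefSeq sequences on GRCm38.p6, 250 bases before to 50 after the start of transcription, with every ACGTG and GCGTG on either strand in capitals. Overlapping copies, as in a palindrome read on both strands, count once per strand. Ldha and Aldoc have 2 windows each, and the first is shown. Ldha lies at chr7:46845554-46845853 on the + strand, Ldhb at chr6:142507908-142508207 on the - strand and Aldoc at chr11:78322823-78323122 on the + strand.
Ldha: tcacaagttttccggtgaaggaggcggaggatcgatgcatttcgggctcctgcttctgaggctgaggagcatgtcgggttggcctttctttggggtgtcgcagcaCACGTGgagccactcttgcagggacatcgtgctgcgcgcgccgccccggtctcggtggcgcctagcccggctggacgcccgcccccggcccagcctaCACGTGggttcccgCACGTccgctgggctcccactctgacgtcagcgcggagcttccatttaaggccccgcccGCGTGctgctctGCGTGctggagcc
Ldhb: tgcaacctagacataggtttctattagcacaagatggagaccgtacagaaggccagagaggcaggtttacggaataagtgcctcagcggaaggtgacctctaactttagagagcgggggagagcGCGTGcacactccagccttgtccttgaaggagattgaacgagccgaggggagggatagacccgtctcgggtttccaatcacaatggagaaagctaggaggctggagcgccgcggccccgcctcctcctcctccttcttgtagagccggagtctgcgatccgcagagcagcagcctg
Aldoc: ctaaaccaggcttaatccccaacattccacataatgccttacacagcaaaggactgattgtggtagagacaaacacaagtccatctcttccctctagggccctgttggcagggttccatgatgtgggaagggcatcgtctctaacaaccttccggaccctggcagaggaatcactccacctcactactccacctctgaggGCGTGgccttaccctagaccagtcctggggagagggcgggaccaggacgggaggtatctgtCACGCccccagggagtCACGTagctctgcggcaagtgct

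The Ldha window shown held 5 copies of ACGTG and 2 of GCGTG, the Ldhb window 0 and 1, and the Aldoc window shown 1 and 2. The second window of Ldha, not shown, held 0 and 2, and that of Aldoc 0 and 1. Promoter windows were given for 31 of the 34 members, with 44 windows in all because some genes have several starts. At least 1 of the 2 motifs was in 36 of the 44 windows (81.8%), against 43.8% of all promoters and 49.3% of those of protein-coding genes. The member windows were also richer in G and C, with a median of 64% against 52.7% over all promoters. A match of these letters is a description and not a binding site.

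Among the HIF subunits, Hif1a, the alpha subunit found in most cells, read 10187 and 12612 in Cxcr7-/- leaflets, against 8122 and 7669 in control leaflets. Both mutant pools were above both controls, with a log2 fold change of 0.52 ± 0.22 (1.43-fold, adjusted p = 0.483 in limma). With that order of pools, leaving out 1 pool could not reverse the sign. The value was 0.37 without Cxcr7-/- replicate 2 and 0.67 without Cxcr7-/- replicate 1. As the mean over the kept Hif1a probe sets it was 0.33. The other kept Hif1a probe sets were at 0.08 ± 0.30 and 0.39 ± 0.70 and overlapped between genotypes. Epas1, the alpha subunit prominent in endothelium, read 6138 and 6075 in Cxcr7-/- leaflets, against 6486 and 8614 in control leaflets (-0.29 ± 0.23, adjusted p = 0.708 in limma). Leaving out control replicate 2 gave -0.09 for Epas1, and leaving out control replicate 1 gave -0.49. Its dimmer probe set was also lower in both mutant pools, at -0.61 ± 0.38. Of the 12 endothelial genes, 10 had negative log2 fold changes and 7 were lower in both mutant pools. They ranged from -1.73 for Cldn5 to 0.16 for Esam, and their part in the Epas1 value was not tested. HIF alpha protein is set mainly by its breakdown, so these transcript levels do not measure HIF activity.

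The prolyl hydroxylases are the oxygen sensors of the pathway, and Egln3 is in addition a strong HIF target. Egln3 read 10294 and 8430 in Cxcr7-/- leaflets, against 5876 and 9029 in control leaflets (0.35 ± 0.27, adjusted p = 0.692 in limma), and the genotypes overlapped. It was at 0.66 without control replicate 2 and 0.04 without control replicate 1, and its other probe set was at 0.02 ± 0.29. Egln1, the main sensor in most tissues, read 2310 and 2392 in Cxcr7-/- leaflets, against 2461 and 2935 in control leaflets (-0.19 ± 0.24, adjusted p = 0.816 in limma). Both mutant pools were lower on this probe set, while the other kept probe set of Egln1 was at 0.20 ± 0.34.

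Mitochondrial and stress-related HIF targets went both ways. Bnip3, which marks mitochondria for removal, read 2444 and 3392 in Cxcr7-/- leaflets, against 2508 and 4214 in control leaflets. Higd1a, a small protein of the inner mitochondrial membrane, read 8500 and 5896 in Cxcr7-/- leaflets, against 7944 and 11786 in control leaflets (-0.45 ± 0.28), and its 2 other kept probe sets were at -0.11 and 0.15. Ankrd37 read 237 and 90.2 in Cxcr7-/- leaflets, against 107 and 119 in control leaflets. The genotypes overlapped for these 3 genes, and for Ankrd37 the mutant pools bracketed the controls.

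Ndrg1, a stress-response gene induced in hypoxia, depended on the probe set. The brightest read 5585 and 6917 in Cxcr7-/- leaflets, against 4688 and 6619 in control leaflets (0.16 ± 0.26). The 4 dimmer sets were at 0.35, 0.75, 0.06 and 0.93, and 3 of them had both mutant pools above both controls. The set at 0.93 ± 0.33 read 345 and 422 in Cxcr7-/- leaflets, against 172 and 210 in control leaflets, with an unadjusted p of 0.0237 in limma. These sets were looked at after the values of the brightest were seen.

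Collagen prolyl hydroxylases, which HIF raises in hypoxic matrix-forming cells, had positive log2 fold changes. P4ha2 read 1204 and 795 in Cxcr7-/- leaflets, against 730 and 734 in control leaflets (0.41 ± 0.30), so that only 1 mutant pool stood clear of the close controls. P4ha1 read 858 and 562 in Cxcr7-/- leaflets, against 724 and 489 in control leaflets, and overlapped. Car9, the extracellular carbonic anhydrase used as a hypoxia marker, was below the filter at 98.8 and 126 in Cxcr7-/- leaflets, against 14.9 and 90.3 in control leaflets.

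In a list of 46 other hypoxia-response genes, 39 were tested, and an unadjusted p under 0.05 was reached by 2 with higher signal, beside 3.94% of all probe sets, and by 3 with lower signal, beside 6.18%, but by none once adjusted. The median log2 fold change was -0.05. Ero1a, an oxidase that forms disulfide bonds in the endoplasmic reticulum, read 2879 and 3283 in Cxcr7-/- leaflets, against 1796 and 1436 in control leaflets (0.93 ± 0.25, adjusted p = 0.406 in limma). Ddit4, an inhibitor of mTOR signalling, read 5019 and 2535 in Cxcr7-/- leaflets, against 1347 and 2212 in control leaflets (1.04 ± 0.38). Both were higher in both mutant pools. Leaving out Cxcr7-/- replicate 1 gave 0.55 for Ddit4, leaving out Cxcr7-/- replicate 2 gave 1.53, and leaving out control replicate 1 gave 0.68.

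On the other side, Lox, the enzyme that crosslinks collagen and elastin, read 1291 and 2022 in Cxcr7-/- leaflets, against 2903 and 2641 in control leaflets (-0.77 ± 0.29). Lox was at -0.45 without Cxcr7-/- replicate 1, and at -0.51 as the mean over its probe sets. Selenbp1, a selenium-binding protein, was at -0.73 ± 0.28. Mb, myoglobin of heart muscle, was at -1.67 ± 0.44, with 3366 and 3129 in Cxcr7-/- leaflets, against 6148 and 17618 in control leaflets. It was at -2.43 without control replicate 1 and -0.92 without control replicate 2. Vegfa, the angiogenic HIF target, read 821 and 886 in Cxcr7-/- leaflets, against 752 and 769 in control leaflets, at 0.16 ± 0.27. It and the HIF suppressor Vhl, at -0.07 ± 0.33, were named after their values were seen.

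The count of members at an unadjusted p under 0.05 depended on the control pools. Without control replicate 1 it was 1 higher and 5 lower, the lower ones being Pfkl, Aldoa, Aldoc, Tpi1 and Higd1a, while 21.4% of all probe sets had such a p. Without control replicate 2 it was 3 higher and 0 lower, the higher ones being Slc2a3, Ldha and Egln3, while 11.7% of all probe sets had such a p. In both settings the members' share was near that of the array. Each of these fits left 1 control pool, so its p-values take their spread from the Cxcr7-/- pools alone. The glycolysis median was -0.18 without control replicate 1 and 0.26 without control replicate 2. Both mutant pools were then above the remaining control in 8 and 14 of the 28 genes and below it in 15 and 6, where 39.4% and 34.1% of all probe sets were above and 39.5% and 39.7% below. An exact permutation test of 2 against 2 pools cannot give a p below 0.333 and was not run.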

How the data were processed

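Each sample is 1 array of a pool. Each probe set has 1 deposited intensity (linear, not logged), which the authors made with Affymetrix Expression Console and MAS5 per the submitters' processing notes, without versions or a genome build in the sources used here. Per the labels, 50 ng of RNA was amplified in 2 rounds. Signals were scaled per array: the mean of the central 96% was 500.003 on each. Dim signals carry large relative errors, and the number of arrays limits precision.

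Of 45037 probe sets outside the 64 controls, those with a mean log2(signal + 22) above the median (22518) were kept. Genes came from the array's annotation, in which 34945 probe sets had 1 symbol, 932 several and 9160 none. The comparison used limma 3.58.1 under R 4.3.3 (intensity trend, two-sided, Benjamini-Hochberg over all probe sets kept), with log2 fold changes as Cxcr7-/- minus control on the log2(signal + 22) scale, which understates changes of dim genes. The fit was tested on simulated data drawn from its own variance model with independent noise. That check cannot show how well the model holds for these arrays. Full statistics were set for members with an unadjusted p under 0.05 or 1.5-fold apart without overlap, and for HIF subunits and hydroxylases, and any member could be named. Up to 8 genes of each other pathway list were named at an unadjusted p under 0.05. The members, lists and rule were chosen with earlier results of these data known. Alternatives changed the pseudocount, filter, scaling, trend, replicate block, arrays and probe set.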

Additional observations from a re-analysis of the deposited data

Results flagged for a closer look

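The Gapdh control probe sets for the middle and the 5' end of the transcript entered no comparison, and both read higher in both Cxcr7-/- pools. The 5' set read 1339 and 1913 in Cxcr7-/- leaflets, against 1063 and 804 in control leaflets, a mean log2 difference of 0.78, and the middle set read 6197 and 6644 in Cxcr7-/- leaflets, against 4019 and 5812 in control leaflets, a difference of 0.41. The 3' set differed by 0.01. Beta-actin (Actb) control sets also read higher in both Cxcr7-/- pools. Their mean log2 differences were 0.82 at the 5' end, 0.55 in the middle and 0.28 at the 3' end. These sets also serve as a measure of RNA integrity, whose part in the difference was not tested.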

How the results depend on the processing

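No member passed the adjusted threshold in any setting. The single member at an unadjusted p under 0.05 (higher) became 0 with no filter, quantile normalization, no intensity trend, the replicate block and the mean over all probe sets of a gene, and 2 with only probe sets not marked as cross-matching. Leaving out 1 pool gave 0 to 3 higher and 0 to 5 lower, while the share of all probe sets at such a p was 3.93% without Cxcr7-/- replicate 1, 5.59% without Cxcr7-/- replicate 2, 21.4% without control replicate 1 and 11.7% without control replicate 2. It gave a glycolysis median of -0.18 to 0.26, a hypoxia median of -0.02 to 0.30, and, chosen after seeing the data for the control pools, 8 to 14 members above and 6 to 15 below. No label ties replicate numbers to a litter, and replicate differences of the genotypes correlated at -0.262 over probe sets, so the arrays were not paired. With the replicate block 7.68% of all probe sets had an unadjusted p under 0.05, beside 10.1% without it. Over the probe sets kept, Cxcr7-/- replicate 2 correlated with control replicate 1 at 0.953. The correlation was 0.956 between the Cxcr7-/- pools and 0.931 between the control pools. Signs reversed for Pgk1 (-0.012) and Pfkfb3 (0.049) after quantile normalization, for Pfkp (-0.11), Pgk1 (-0.11) and Egln1 (0.0031) with the mean over probe sets, and for Pgk1 (-0.028) without such sets; the cause was not tested. With 1 pool left out, the sign also reversed in 14 members, with ranges of -0.70 to 0.23 for Aldoa, -0.26 to 0.94 for Ankrd37, -0.55 to 0.20 for Bnip3, -0.17 to 0.37 for Hk1, -0.090 to 0.41 for Ndrg1, -0.080 to 0.51 for P4ha1, -0.58 to 0.10 for Pdk1, -0.046 to 0.30 for Pdk3, -0.46 to 0.30 for Pfkfb3, -0.14 to 0.28 for Pgk1, -0.67 to 0.19 for Pkm, -0.10 to 0.22 for Slc2a1, -0.19 to 0.87 for Slc2a3 and -0.57 to 0.37 for Tpi1. For other genes named, the ranges with 1 pool left out were -2.38 to -0.84 for Pgam2, -1.35 to -0.35 for Eno3, -1.57 to -0.72 for Ldhb, -2.51 to -1.00 for Pdk4 and -2.43 to -0.92 for Mb. A lone pool of a genotype is assumed to vary like the pools of the other. Aldoc and other dim members are limited by their signal over background.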
